A study of Mus musculus with 10 samples.

Results

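The Dlk1-Dio3 domain is an imprinted region of mouse chromosome 12. Its long transcripts and the microRNA precursors hosted in one of them were followed in fetal lungs with and without epithelial Hdac3. The set holds 8 of the 17919 genes with a value of their own: the coding genes Dlk1 and Dio3, the long noncoding RNAs Meg3, Rian and Dio3os, and the precursors Mir341, Mir1188 and Mir370. Members were chosen by their place in the domain or within Rian, and the probe set of each was selected by the highest mean over all lungs among probe sets with a single gene symbol. The set was drawn up with the comparison of knockout and control already known. The members' differences are therefore given as a description and not as a test.

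Knockout lungs (5) came from Shhcre:Hdac3fl/fl embryos and control lungs (5) from embryos labelled Shhcre, so both groups carry Shh-Cre, which drives recombination in epithelial cells of the lung. All were taken at E18.5 on a mixed background of C57BL/6 with 129X1 and 129S6, and each whole lung went onto 1 expression array. Hdac3 encodes a histone deacetylase of the NCoR and SMRT corepressor complexes. Per the labels' protocols, Hdac3 fl/fl females were mated with Hdac3 fl/+ ShhCre males, and the Hdac3 alleles of the controls are not given. In this cross every embryo inherits a floxed copy from its mother. A control with Shh-Cre bred from it would therefore be heterozygous for the deletion, not wild type. Whole lung also holds mesenchymal, endothelial and blood cells that Shh-Cre does not recombine. In such bulk RNA, a change in the number of cells of a type and a change in RNA per cell cannot be told apart.

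In an imprinted domain only 1 parental copy of each gene is active. In this one Dlk1, Rtl1 and Dio3 are known to be expressed from the paternal chromosome, and Meg3, Rian, Mirg and the microRNAs from the maternal one, under a control region that is methylated on the paternal copy. The maternal noncoding RNAs are commonly described as one long transcription unit that starts at Meg3, and small RNAs are cut from it. Dlk1 is a transmembrane protein with EGF-like repeats, related to the Notch ligands, and Dio3 is the deiodinase that inactivates thyroid hormone. Parental origin is background knowledge here, since the arrays do not separate the parental copies. First-strand synthesis was primed with poly(T), per the labels' protocols, so a precursor's probe set reads polyadenylated RNA that contains it, not the mature microRNA.

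The mature microRNAs of the 3 Rian-hosted precursors are shown to place the precursors among the known seed families. Sequences are RefSeq's, from GRCm38.p6, plus strand of chromosome 12, with the seed (bases 2 to 8) in capitals:
mmu-miR-341-5p: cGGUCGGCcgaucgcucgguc
mmu-miR-341-3p: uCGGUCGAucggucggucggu
mmu-miR-1188-5p: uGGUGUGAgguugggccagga
mmu-miR-1188-3p: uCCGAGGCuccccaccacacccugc
mmu-miR-370-5p: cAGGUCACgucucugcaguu
mmu-miR-370-3p: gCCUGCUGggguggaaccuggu

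The 6 mature sequences have 6 distinct seeds. The seed of miR-370-5p is also that of miR-1193-3p, whose precursor lies in the same domain, while the other seeds occur in no other mature sequence of the table. The 3' arm of miR-341 holds the letters CGGU 4 times. All 3 precursors lie within Rian in the GRCm38.p6 gene table.

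The windows at the starts of the paternal genes and of Meg3, the first gene of the maternal unit, are shown because the results set these sides against each other. Meg3 has a pair of windows in the table, and the one printed is the first. Each window runs from 250 bases before to 50 after the RefSeq start, on the plus strand of GRCm38.p6, and capitals mark matches on either strand to TATAAA (the TATA box), to TGACGTCA (the cAMP response element), to AGGTCA (the nuclear receptor motif) or to CCAAT (the CCAAT box):
Meg3, chr12:109540746-109541045: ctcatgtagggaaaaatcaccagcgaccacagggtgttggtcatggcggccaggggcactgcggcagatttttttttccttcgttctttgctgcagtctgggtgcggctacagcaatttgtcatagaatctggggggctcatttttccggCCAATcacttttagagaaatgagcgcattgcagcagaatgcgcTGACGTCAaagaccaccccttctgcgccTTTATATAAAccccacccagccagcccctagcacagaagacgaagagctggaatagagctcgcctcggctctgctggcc
Dlk1, chr12:109452573-109452872: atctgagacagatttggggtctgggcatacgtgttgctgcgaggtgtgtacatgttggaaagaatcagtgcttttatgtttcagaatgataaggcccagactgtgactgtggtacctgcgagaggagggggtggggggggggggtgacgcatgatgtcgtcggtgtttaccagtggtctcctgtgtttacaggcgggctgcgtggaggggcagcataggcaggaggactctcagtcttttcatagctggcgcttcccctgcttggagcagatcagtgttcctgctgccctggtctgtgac
Dio3, chr12:110278980-110279279: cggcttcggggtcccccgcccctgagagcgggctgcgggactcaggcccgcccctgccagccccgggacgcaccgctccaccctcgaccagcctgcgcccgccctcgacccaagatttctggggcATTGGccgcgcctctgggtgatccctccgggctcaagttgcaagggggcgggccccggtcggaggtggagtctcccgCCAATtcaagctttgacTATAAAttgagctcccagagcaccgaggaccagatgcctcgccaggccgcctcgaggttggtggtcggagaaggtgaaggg

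The Meg3 window holds TGACGTCA, the cAMP response element, once, and 1.79% of the 32817 windows of this length in the table hold it. It also holds CCAAT once and TATAAA 2 times, as overlapping matches on opposite strands. The Dio3 window holds TATAAA once and CCAAT 2 times. These motifs occur in 13.6% (TATAAA) and 37.4% (CCAAT) of windows. AGGTCA, the core binding motif of nuclear receptors such as those for thyroid hormone, is in none of the 3 windows and in 16.3% of all windows. The Dlk1 window held 0 matches to the 4 motifs. No match says only that these letters are not in this window.

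Hdac3 was measured first, as a check of the labels; where its probes lie relative to the deleted part was not known here. Its log2 level was 10.57, 10.54, 10.61, 10.34 and 10.43 in knockout lungs 1 to 5, against 10.80, 10.90, 10.80, 10.67 and 10.90 in control lungs 1 to 5. Hdac3 was lower in every knockout lung than in every control lung, with a difference of -0.31 ± 0.07 (SE, n = 5 per group; limma adjusted p = 0.0203). All levels here are log2 probe set values as the authors deposited them, and all differences are knockout minus control on that scale. A probe set's level depends on how well its probes bind, so levels are compared between lungs and not between genes.

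Rian and its 3 precursors were higher in every knockout lung than in every control lung, with mean differences from 0.36 to 0.65, while Dlk1 and Dio3 differed by less than 0.1 in size and overlapped between the groups. In limma's fit over all genes, with Benjamini-Hochberg adjustment, 4 of the 8 members had an adjusted p under 0.05, all of them higher: Rian, Mir341, Mir1188 and Mir370. Of all genes 3.12% passed that threshold, 1.54% higher and 1.58% lower. As the comparison was known when the set was drawn up, nothing is read from this count or from the lack of overlap. The share of all genes whose groups do not overlap is not given here. The median difference of the members was 0.24, against 0.00 over all genes.

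**Figure D1:**
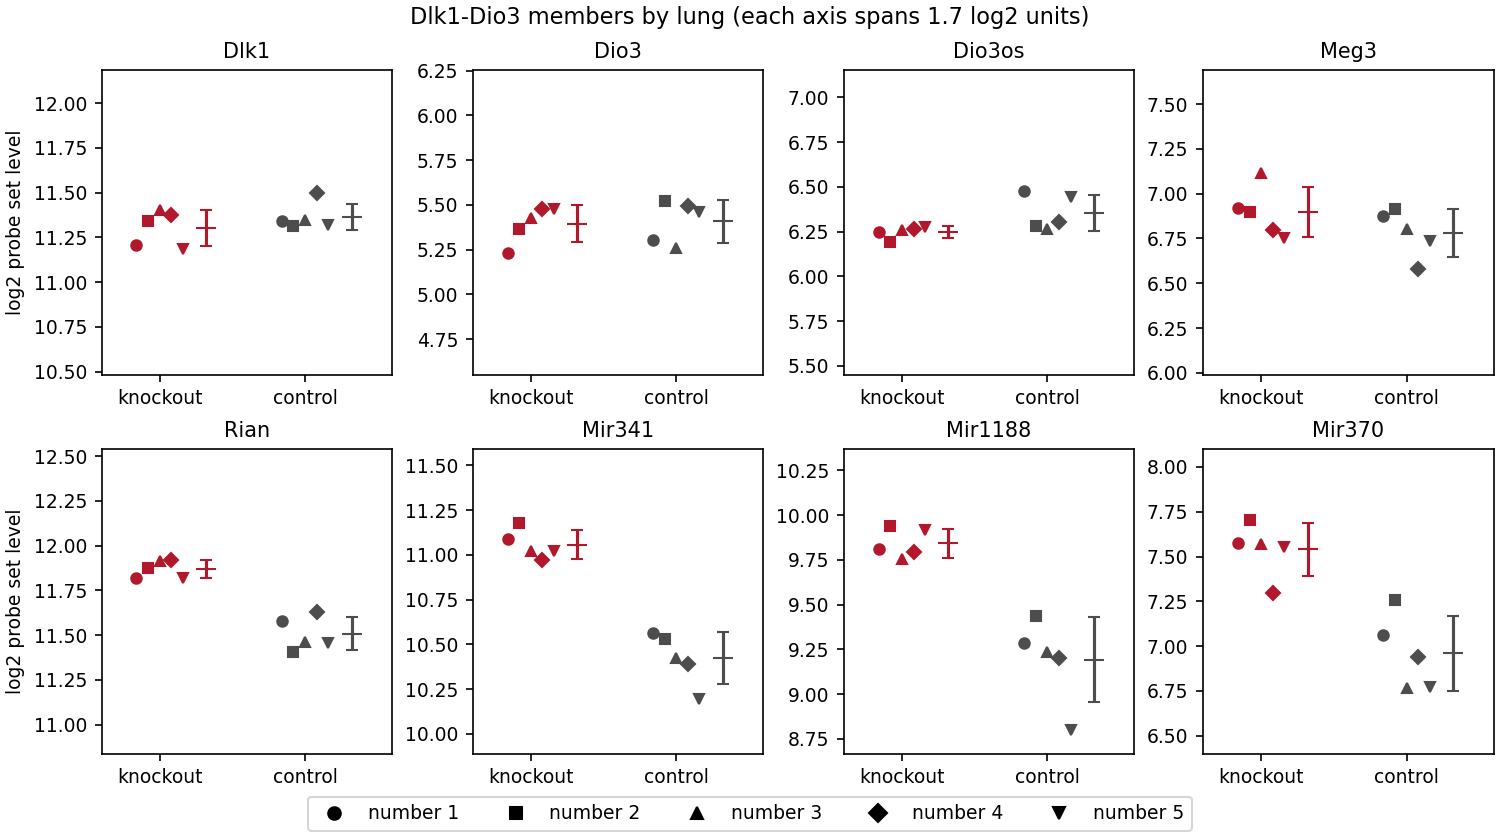
Log2 probe set level of each member (y axes, all spanning the same range) in the 5 knockout lungs (red, left) and the 5 control lungs (grey, right), with a symbol for each replicate number and the mean ± SD beside the points. The groups are separate in Rian, Mir341, Mir1188 and Mir370 and overlap in Dlk1, Dio3, Dio3os and the Meg3 probe set.

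Among the paternal genes, Dlk1, a marker of immature cells such as preadipocytes, had levels of 11.21, 11.34, 11.40, 11.38 and 11.18 in knockout lungs 1 to 5, against 11.34, 11.31, 11.35, 11.50 and 11.32 in control lungs 1 to 5. Knockout lungs 5 and 1 were the lowest and control lung 4 the highest, and the groups overlapped. The means were 11.30 ± 0.10 in knockout and 11.36 ± 0.08 in control lungs (SD, n = 5 each), a difference of -0.06 ± 0.06 (SE). The knockout was higher than the same-numbered control in 2 of 5 pairs. In lungs numbered 1 to 3 the difference was -0.02, and in lungs 4 and 5 it was -0.13.

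Dio3 had levels of 5.23, 5.37, 5.43, 5.48 and 5.48 in knockout lungs 1 to 5, against 5.31, 5.52, 5.26, 5.49 and 5.46 in control lungs 1 to 5. The groups overlapped throughout, with a difference of -0.01 ± 0.07 (SE). All 10 values were below 6.11, the 20th percentile of the whole table, so a change in Dio3 could be missed at this signal. Its antisense partner Dio3os, a noncoding RNA read from the opposite strand next to Dio3, had levels of 6.25, 6.19, 6.26, 6.26 and 6.28 in knockout lungs 1 to 5, against 6.47, 6.28, 6.26, 6.31 and 6.44 in control lungs 1 to 5. It was lower in the knockout in 5 of 5 same-numbered pairs, but the groups overlapped, with a difference of -0.11 ± 0.05 (SE) at a level close to that percentile.

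Rian, the long noncoding RNA that hosts small nucleolar RNAs and microRNAs, had levels of 11.82, 11.88, 11.91, 11.92 and 11.82 in knockout lungs 1 to 5, against 11.58, 11.41, 11.46, 11.63 and 11.46 in control lungs 1 to 5. The highest control lung, number 4, lay 0.19 below the lowest knockout lung. The means were 11.87 ± 0.05 in knockout and 11.51 ± 0.09 in control lungs (SD, n = 5 each), a difference of 0.36 ± 0.05 (SE), or 1.29-fold. The difference was 0.39 in lungs numbered 1 to 3 and 0.33 in lungs 4 and 5, and within same-numbered pairs it ran from 0.24 to 0.47. Another probe set, annotated to Rian and the small nucleolar RNA DQ267100 together, differed by 0.42 ± 0.09 (SE), with overlapping groups because knockout lung 1 (10.58) lay below control lung 1 (10.66).

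Of the precursors in Rian, Mir341 had levels of 11.09, 11.18, 11.02, 10.97 and 11.02 in knockout lungs 1 to 5, against 10.57, 10.53, 10.43, 10.39 and 10.20 in control lungs 1 to 5. The gap between the groups, 0.41, was the widest among the members. The difference was 0.63 ± 0.07 (SE), or 1.55-fold, with 0.59 in lungs numbered 1 to 3 and 0.70 in lungs 4 and 5.

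Mir1188 had levels of 9.81, 9.94, 9.75, 9.79 and 9.92 in knockout lungs 1 to 5, against 9.29, 9.44, 9.23, 9.20 and 8.80 in control lungs 1 to 5. Control lung 5 was the lowest. The difference was 0.65 ± 0.10 (SE), or 1.57-fold, and it was 0.51 in lungs numbered 1 to 3 and 0.86 in lungs 4 and 5. Without control lung 5 it was 0.55. The gap between the groups is set by knockout lung 3 and control lung 2, so leaving out control lung 5 could not close it.

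Mir370 had levels of 7.57, 7.70, 7.57, 7.30 and 7.55 in knockout lungs 1 to 5, against 7.06, 7.26, 6.77, 6.94 and 6.77 in control lungs 1 to 5. Knockout lung 4 and control lung 2 were only 0.04 apart, the closest approach of the groups among these 4 members. The difference was 0.58 ± 0.10 (SE), or 49.6% more on the linear scale, with 0.59 in lungs numbered 1 to 3 and 0.57 in lungs 4 and 5. All 3 precursors were higher than the same-numbered control in 5 of 5 pairs, which follows from the lack of overlap and adds nothing to it.

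The mean differences of the 3 precursors were larger than that of their host, but the excess over Rian overlapped between the groups for each of them. Relative to the control means, Mir341 exceeded Rian by 0.27 ± 0.10 in knockout lungs, against 0 ± 0.16 in control lungs (SD, n = 5 each). Mir1188 exceeded it by 0.29 ± 0.11 in knockout lungs, against 0 ± 0.26 in control lungs. For Mir370 the excess was 0.22 ± 0.17 in knockout lungs, against 0 ± 0.24 in control lungs, with knockout lung 4 at -0.07 and control lung 2, at 0.40, above every knockout lung. The probe sets for a precursor and its host read different stretches of RNA with different probes, and whether that alters the size of the difference was not tested.

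The value for Meg3, the long noncoding RNA at the start of the maternal unit, depended on the probe set. The probe set annotated to Meg3 alone had levels of 6.92, 6.90, 7.12, 6.80 and 6.75 in knockout lungs 1 to 5, against 6.88, 6.91, 6.80, 6.58 and 6.73 in control lungs 1 to 5. The groups overlapped, with a difference of 0.12 ± 0.08 (SE), and the knockout was higher in 4 of 5 same-numbered pairs. In both groups lungs 4 and 5 were the lowest. RefSeq places Meg3 on the plus strand. Of the 20 probe sets listed around this one by identifier, 12 name a chromosome 12 gene with a known strand, and 11 of those lie only on the minus strand. Around Dio3os, itself on the minus strand, 9 of 10 such genes lie on the minus strand. Around Dlk1 and Dio3, both on the plus strand, 6 of 6 and 8 of 8 lie on the plus strand. The sources used here do not say which strand the Meg3 probe set reads, and whether it reads Meg3 or the opposite strand was not tested.

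Another probe set, annotated to Meg3 and Mir770 together, had levels of 11.57, 11.59, 11.59, 11.50 and 11.36 in knockout lungs 1 to 5, against 11.39, 11.30, 11.35, 11.37 and 11.33 in control lungs 1 to 5. Only knockout lung 5 lay within the control range, and the difference was 0.17 ± 0.05 (SE). It was 0.24 in lungs numbered 1 to 3 and 0.08 in lungs 4 and 5. Around this probe set, 6 of 6 listed genes with a known strand lie on the plus strand. The probe set annotated to Meg3, Mir1906-1 and Mir1906-2 averaged 11.14 ± 0.08 in knockout and 10.85 ± 0.04 in control lungs (SD, n = 5 each). There the groups did not overlap, and the difference was 0.29 ± 0.05 (SE). Since each of these carries several symbols, neither gives Meg3 a value of its own.

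**Figure D2:**
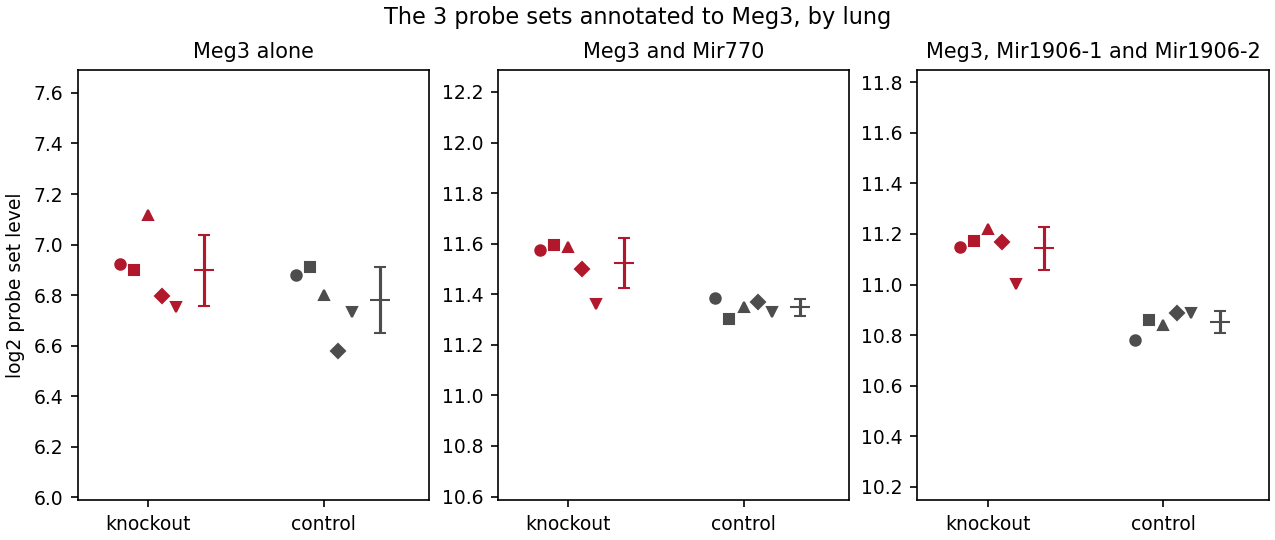
Log2 level (y axes of equal span) of the 3 probe sets annotated to Meg3, in knockout (red, left) and control lungs (grey, right), with a symbol for each replicate number (circle 1, square 2, triangle 3, diamond 4, inverted triangle 5) and the mean ± SD. The groups overlap on the left, overlap through knockout lung 5 in the middle and are apart on the right.

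The contrast of maternal and paternal long transcripts was taken within each lung. The mean of Meg3 and Rian minus the mean of Dlk1 and Dio3, each centred on its control mean, was 0.39, 0.28, 0.34, 0.17 and 0.20 in knockout lungs 1 to 5, against 0.15, -0.02, 0.07, -0.15 and -0.05 in control lungs 1 to 5. The lowest knockout lung, number 4, stood just above the highest control lung, number 1. The mean was 0.28 ± 0.09 in knockout and 0 ± 0.11 in control lungs (SD, n = 5 each). With the Meg3 and Mir770 probe set in place of the one annotated to Meg3 alone it was 0.31, and with the Meg3, Mir1906-1 and Mir1906-2 probe set 0.36, alternatives chosen after seeing the data. Rian against Dlk1 alone gave 0.47, 0.39, 0.37, 0.40 and 0.49 in knockout lungs 1 to 5, and at most 0.09 in a control lung. Rian and Dlk1 thus differed unequally between the groups in these lungs, as a description and not as a test. All Dio3 values lay below the percentile of the whole table given above, where a change could be missed. The strand read by the probe set annotated to Meg3 alone was not known. Whether the maternal and paternal sides changed unequally beyond Rian and Dlk1 was therefore not settled by this contrast. The shares of the parental copies were not measured.

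Within groups, the lungs differed in ways the choice of members did not use. Deviations from the group means were correlated over the 10 lungs for all 28 pairs of members, with p-values from 100000 two-sided permutations within groups and Benjamini-Hochberg adjustment over the pairs. One pair passed: lungs with more Rian had more Dlk1, with Pearson's r = 0.79 (permutation p = 0.00127, adjusted p = 0.0356) and Spearman's rho = 0.81 (permutation p = 0.00328, adjusted p = 0.0918). These genes are active on opposite parental chromosomes. Without control lung 4 and knockout lung 3, the lungs farthest out in Dlk1, r was 0.62. When each pair lost the 2 lungs farthest out in its own first gene, no pair passed. With 1 lung left out at a time, no pair passed in 8 of 10 cases, control lungs 1 and 3 being the exceptions. With the means of lungs 1 to 3 and of lungs 4 and 5 removed within each group as well, r was 0.78 (permutation p = 0.0283, adjusted p = 0.321). There the fewer arrangements allow no p below 0.00694, and no pair passed. All points share an array and an RNA preparation between the 2 genes, and the part of these in the relation was not tested. The permutations did not keep same-numbered lungs together, and the effect of that on the p-values was not tested.

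Correlations among the 3 precursors were positive and did not pass adjustment. Mir341 and Mir1188 had r = 0.87 and rho = 0.83 (permutation p = 0.0084 and 0.00848, adjusted p = 0.118 and 0.119). Mir341 and Mir370 had r = 0.77 and rho = 0.76 (permutation p = 0.0206 and 0.0194, adjusted p = 0.192 and 0.181). Without control lungs 5 and 1, r was 0.75 for the first of these pairs and 0.80 for the second, and within the sets of numbers it was 0.87 and 0.71. Between Rian and Mir341 r was 0.03 and rho 0.07 (permutation p = 0.959 and 0.888, adjusted p = 0.959 and 0.931), but r was 0.41 within the sets of numbers and -0.38 without control lungs 4 and 1, so a relation of this host and precursor among lungs was not settled at n = 10.

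The genes whose deviations were most like those of Dlk1 over the 10 lungs were Atp7b (r = 0.96), a copper transporter, Lama2 (0.95), a laminin chain of muscle and mesenchyme, Col4a2 (0.95), a basement membrane collagen, Dhrs11 (0.95) and Arhgef3 (0.94). For the probe set annotated to Meg3 alone they were Usp2 (0.97), Cpsf1 (0.96), Tmem258 (0.95), Zfp787 (0.94) and Sec14l4 (0.94). These are the top 5 of all other genes by Pearson's r, as a description of these lungs, and a search over this many genes finds high values by itself. None of the 10 had an adjusted p under 0.05 between knockout and control, the closest being Atp7b (-0.51, limma adjusted p = 0.0574).

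Of the 40 other microRNA precursors between Dlk1 and Dio3 that have a value of their own, 34 were higher past the threshold and 0 lower, with a median difference of 0.85. The range ran from 0.05 for Mir299a and 0.27 for Mir673 to 1.63 for Mir376a and 1.64 for Mir376b, so the 3 Rian-hosted precursors lay below the median. Of 5 other small nucleolar RNA genes within Rian, named after their values were seen, AF357426 (0.40), AF357355 (0.49) and DQ267102 (0.43) were higher past the threshold, and AF357425 (0.20) and DQ267101 (0.51) did not pass. Among the probe sets shared by Rtl1 and microRNAs, the one annotated to Rtl1 and Mir434 differed by 2.31 ± 0.18 (SE), the largest difference in the domain, and the one annotated to Rtl1 and Mir3071 by 0.25 ± 0.06. Mir434 lies in the maternal antisense transcript of Rtl1, and the strand its probes read was not known here. Mirg, the noncoding RNA at the far end, has no probe set of its own, and Rtl1 has none either.

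**Figure D3:**
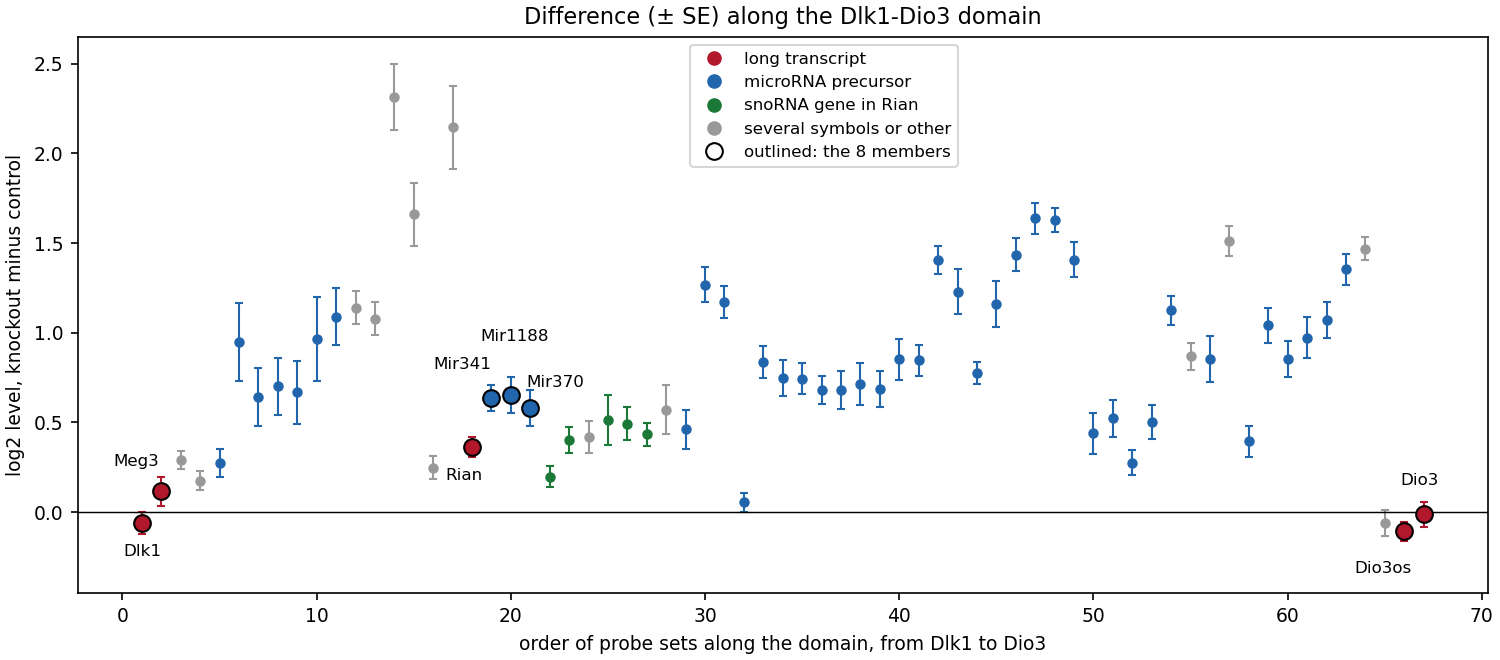
Difference in log2 level, knockout minus control (± SE, y axis), of each probe set placed between Dlk1 and Dio3, in chromosomal order (x axis). The outlined members Dlk1, Dio3os and Dio3 lie near or below 0 at the ends, and Rian with its precursors lie between 0.36 and 0.65, below most precursors on either side of them.

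On the flanks of the domain, of the 12 nearest measured genes beyond Dlk1 and the 12 beyond Dio3, 0 passed limma's threshold and 1 had an unadjusted p under 0.05, and the median difference was -0.01. Next to Dlk1, Begain and Wdr25 differed by 0.08 ± 0.06 and 0.03 ± 0.06 (SE). Next to Dio3, Ppp2r5c, a phosphatase subunit, and Dync1h1, a dynein heavy chain, differed by -0.07 ± 0.06 and -0.01 ± 0.04. The exception in size was Mok, a protein kinase gene beyond Dio3, at -0.33 ± 0.09 (SE, limma adjusted p = 0.0657, and 0.0167 with the replicate number as a block).

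Genes that act with the members' products were read from lists. Of 19 measured genes of thyroid hormone transport, deiodination and response, the pathway Dio3 acts on, 0 passed, and the unadjusted p of 4 was under 0.05. The coactivator Ncoa1 was at -0.18 ± 0.05 (SE, limma adjusted p = 0.0725) and the clock output gene Dbp at -0.18 ± 0.06 (limma adjusted p = 0.117). With the replicate block 1 gene of this list rose, Me1, the malic enzyme, by 0.37 (limma adjusted p = 0.0396, against 0.161 without the block). Of 22 Notch pathway genes 0 passed and 1 had an unadjusted p below 0.05, with Mfng at 0.13 ± 0.06 and Jag1 at -0.20 ± 0.11 (SE).

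Of 19 genes of imprint maintenance and DNA methylation, 0 passed and 0 had an unadjusted p below 0.05, with Dnmt3b, a DNA methyltransferase, at 0.09 ± 0.04 and Trim28, a corepressor that protects imprints, at 0.11 ± 0.05 (SE). Of 10 PRC2 genes Jarid2, which recruits that repressive complex, fell by 0.20 ± 0.05 (SE, limma adjusted p = 0.0429), a call lost with the replicate block (0.0585) and when any single lung other than knockout lung 5 was left out. The PRC2 cofactor Phf19 stood at 0.23 ± 0.10. Of 9 genes of microRNA processing 0 passed and 2 had an unadjusted p below 0.05. The Argonaute genes Ago1 and Ago4 stood at -0.20 ± 0.06 and -0.20 ± 0.07 (SE, limma adjusted p = 0.0768 and 0.169).

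Markers of the cell types in the lung were read beside these results. Of 15 fibroblast, 12 endothelial, 11 smooth muscle and pericyte, 7 skeletal muscle, 9 cartilage, 7 proliferation and 8 fetal liver or adrenal markers, 0 passed limma's threshold, with 1, 0, 1, 1, 0, 0 and 2 at an unadjusted p under 0.05. The mean level of the fibroblast list ran from 10.56 to 10.67 in knockout and from 10.60 to 10.71 in control lungs. The smooth muscle and pericyte mean, from 9.11 to 9.29 in knockout and from 9.30 to 9.38 in control lungs, did not overlap between the groups. The mean of the proliferation list ran from 9.05 to 10.001 in knockout and from 8.89 to 9.63 in control lungs. Of 10 AT1 markers, of the flat gas-exchange cells, 3 fell, and of 10 AT2 markers, of the surfactant-producing cells, 2 rose and 1 fell. Of 7 mesothelial markers 2 rose, Krt19 by 0.67 and Msln by 0.46, and of 9 neuroendocrine markers Pcsk1 rose by 0.43 and Ddc fell by 0.47. The mesothelial mean ran from 9.02 to 9.20 in knockout and from 8.84 to 9.09 in control lungs. The median difference over the 7 mesothelial markers was -0.0007. Of 8 leukocyte markers 0 passed and 4 had an unadjusted p below 0.05, with a mean from 7.95 to 8.14 in knockout and from 8.16 to 8.29 in control lungs, again without overlap. Of 2 measured erythroid markers 0 passed, with 0 at an unadjusted p under 0.05. With the replicate number as a block, limma's adjusted p passed for the leukocyte genes Laptm5 (-0.27, adjusted p = 0.0227) and Ccr2 (-0.33, 0.0282) and the smooth muscle gene Cnn1 (-0.41, 0.0275), all lower. It also passed for the endothelial gene Car4 (0.32, 0.0172) and the erythroid gene Slc4a1 (0.22, 0.0461), both higher. The blocked counts were 1 higher and 3 lower for AT1, 1 higher and 2 lower for neuroendocrine and 2 higher and 1 lower for mesothelial markers. The lung identity list of 11 genes, among them Nkx2-1 and Sftpc, had a mean from 11.39 to 11.615 in knockout and from 11.56 to 11.605 in control lungs. In that list 0 genes passed and 1 had an unadjusted p below 0.05, the surfactant protein gene Sftpa1 at -0.48 ± 0.14 (SE, limma adjusted p = 0.0899), which passed when knockout lung 4 was left out. Scgb1a1, the secretory protein of club cells, stood at -0.15 ± 0.08 (SE, limma adjusted p = 0.469). The part of these markers in the members' differences was not tested.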

How the data were processed

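RNA of 10 whole mouse lungs was measured on 1 array each. The deposited values are log2 probe set levels; per the submitters' processing notes the authors used oligo, RMA and limma, with no versions given. The sources used here name no build and no row filter. The table holds 24888 probe sets, with values from 3.526 to 13.61 and lung medians from 7.428 to 7.461; correlations between lungs ran from 0.9838 to 0.9945, and 0 columns were identical. Number of lungs limits the precision (median SE 0.0662). In the platform annotation 18922 probe sets carry 1 symbol, 1343 carry several and 4623 are without one. The probe set of highest mean stood for each gene (17919 genes); shared probe sets were fitted with all probe sets.

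limma 3.58.1 in R 4.3.3 (lmFit, eBayes, two-sided, Benjamini-Hochberg over all genes, threshold 0.05) compared the groups, and the fit was tested on simulated data. RefSeq sequences matched 3 of 8 members as microRNAs and 5 as promoters. The GRCm38.p6 gene table was used for names, types and order of genes.

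Same-numbered lungs deviated together, with correlations of 0.319, 0.154, 0.183, 0.485 and 0.36. Lungs of different numbers had a median of -0.0829 and reached 0.33, above 3 of the 5. As deviations are taken from the group means, positive same-number values push the others down, so this median is not an independent contrast. Numbers were therefore taken to pair lungs in the replicate block and the same-numbered comparisons. This rests on the data, as the labels do not say it. The main fit used the group alone, without this pairing. Lungs 1 to 3 and lungs 4 and 5 lay apart on the second principal component in both groups, and the labels name no batch. The part of this split in the same-number correlations was not tested. The labels call the lungs biological replicates.

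The members and lists were chosen with earlier results of these data known. The text names all members, Hdac3, other domain genes, the nearest neighbours, up to 4 called genes of each pathway list (or the 2 of smallest p), and the 5 genes most like Meg3 and Dlk1. Markers and genes said to be named after their values were seen are outside this rule. Alternatives were a replicate block, a block or restriction by number set, each lung left out, a floor at the 20th percentile, rescaling, other probe set rules, and trend or array weights.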

Additional observations from a re-analysis of the deposited data

Results flagged for a closer look

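In 16 groups of 5 lungs (8 members in knockout and in control), 1 value stood far from its group. Dlk1 in control lung 4 was 11.495, against 11.312 to 11.349 in the other controls. Its gap took 0.794 of the group's range, over the limit of 0.71 that Dixon's rule sets for 5 samples. Chance flags about 1 in 20 groups. The same lung also had the highest Rian level among the controls (11.63).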

How the results depend on the processing

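Limits are few lungs per group, levels near background for Dio3 and Dio3os, probe sets shared between genes, and number sets that lie apart with no batch named. Genes with an adjusted p under 0.05 numbered 559, against 846 with the replicate block that pairs same-numbered lungs, 910 with the number sets as a block, 2 in lungs 4 and 5 alone, and 393 to 699 with 1 lung left out. The same 4 members passed in 20 of 22 alternatives and with each lung left out (4 to 4); 3 passed among genes above the median level, without Mir370, and 0 in lungs 4 and 5 alone, where each group has 2 lungs. Among pathway and neighbour genes 1 passed. It was 2 with the replicate block, 4 with the number sets as a block, 0 in lungs 1 to 3 or 4 and 5 alone, 2 with the floor, with the 75th percentile subtracted, with trend and robust fitting or with array weights, 3 among genes above the median level, and 0 to 3 with 1 lung left out. Correlated pairs of members numbered 1, against 0 with number sets centred and 0 to 1 with 1 lung left out. The number was also 0 when each pair lost the 2 lungs farthest out in its own first gene. The maternal minus paternal difference ran from 0.24 to 0.36 over its alternatives. Rian, Mir341, Mir1188, Mir370, Meg3, Dlk1 and Dio3os kept their direction in the 18 alternatives run for them (20 for Meg3). Dio3 ran from -0.05 to 0.03 with 1 lung left out. The replicate block and the number-set block could not move these differences, as the groups are balanced in them. Neither could the mean over probe sets, as each member has 1 single-symbol probe set. Meg3 stood at 0.29 from the probe set shared with Mir1906-1 and Mir1906-2, and Mir1188 at 0.86 in lungs 4 and 5. Settings with fewer lungs or genes test fewer by construction, and other causes were not tested.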
